A study of Mus musculus with 57 samples.

Results

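The interleukin 6 (IL-6) and STAT3 axis of the mouse heart was followed through 10 genes, which were taken by symbol from a fixed list and were all present in both count tables, among 25416 genes in the acute and 54658 genes in the chronic table. The list holds 2 cytokines (Il6 and Lif), the receptor genes Il6ra, Il6st, Osmr, Il4ra and Il1r1, the transcription factor Stat3, its feedback inhibitor Socs3 and the kinase Pim1. In the acute study, male wild-type C57BL6/J mice, bought when 9 weeks old, were given saline vehicle (Ctrl, 14 hearts), 1 intraperitoneal injection of 20 mg/kg doxorubicin (Doxo, 13 hearts), or the same injection with 180 mg/kg/day nicotinamide mononucleotide, also injected, from 5 days before Doxo (Doxo-NMN, 13 hearts), and hearts were taken on day 5. In the chronic study, wild-type males of the same strain, aged 14 to 16 weeks, received PBS (Ctrl, 5 hearts), 5 injections of 4 mg/kg Doxo for a total of 20 mg/kg (Doxo, 6 hearts), or the same Doxo course with NMN added to the drinking water at 500 mg/kg/day, starting 5 days earlier (Doxo-NMN, 6 hearts), and hearts were taken on day 60. Doxorubicin is an anthracycline used against tumours that is toxic to the heart, and NMN is a precursor of NAD+. Hearts came only from mice that were alive on the day of collection. No group received NMN without Doxo, so NMN was measured only on top of Doxo.

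IL-6 family cytokines act on cells through receptors that contain gp130, the product of Il6st. IL-6 itself binds first to the receptor encoded by Il6ra, oncostatin M to a pair of gp130 and the product of Osmr, and LIF to a pair of gp130 and the product of Lifr. The receptors activate Janus kinases, which phosphorylate STAT3. STAT3 then enters the nucleus and turns on genes such as Socs3, whose product blocks the receptor in a feedback loop, and Pim1, a serine/threonine kinase. In heart muscle this pathway is known for its part in stress and survival responses. Il4ra encodes the signalling chain shared by the receptors for IL-4 and IL-13, and Il1r1 the signalling receptor for IL-1.

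The Socs3 promoter is shown because Socs3 had the largest change among the tested members and because its window alone, of 12 windows for the 10 genes, held the letters searched for. STAT proteins bind to the palindrome TTCNNNGAA, and the stricter form TTCCNGGAA was also searched. Both read the same on the 2 strands, and every match of the second is also a match of the first. The windows are RefSeq promoters of GRCm38.p6 with 250 bases before and 50 bases after each start, and Il1r1 and Pim1 have 2 each. The Socs3 window lies on the minus strand at chr11:117969317-117969616, inside the span of the Socs3 gene in GENCODE, and is printed 5′ to 3′ with the match in capitals.
Socs3: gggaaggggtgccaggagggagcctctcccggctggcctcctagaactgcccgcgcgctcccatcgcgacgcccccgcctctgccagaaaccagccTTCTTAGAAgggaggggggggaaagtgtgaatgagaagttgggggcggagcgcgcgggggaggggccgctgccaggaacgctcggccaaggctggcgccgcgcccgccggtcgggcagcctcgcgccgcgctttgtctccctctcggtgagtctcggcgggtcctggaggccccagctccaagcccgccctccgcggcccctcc
The match begins 154 bases before the start (position -154). TTCNNNGAA occurred in 8.33% of the member windows against 8.3% of 32851 promoters, and TTCCNGGAA in none of the member windows against 1.15% of all. A match is a description of letters, and absence says only that they are not in these windows.

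Total counts ranged from 32409622 to 52102850 per acute heart and from 17769886 to 23862287 per chronic heart, and a floor of 3 counts corresponded to 0.0549 to 0.105 and 0.124 to 0.172 CPM. CPM are counts per 1e6 counted reads after the library sizes were scaled by TMM factors, for floors and genes alike. These floors cover counting error only. Markers of heart muscle cells (Myh6, Tnnt2, Tnni3, Actc1 and Ryr2) summed to 49900 to 61500 CPM in Ctrl, 23500 to 65600 CPM in Doxo and 30900 to 70200 CPM in Doxo-NMN hearts of the acute study. Atrial tissue differed between acute hearts, since Myl4, an atrial myosin light chain, was above 100 CPM in 17 of 40 hearts (8 Ctrl, 5 Doxo and 4 Doxo-NMN). The library labelled Doxo replicate 6 stood apart from the other acute Doxo hearts, with only 1 of the 10 genes (Il4ra) above all Ctrl hearts, and results are given with it and, where stated, without it. In whole hearts, more cells of a type and more RNA per cell cannot be told apart.

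In the acute study, 6 members were called higher in Doxo than in Ctrl hearts: Socs3, Osmr, Il4ra, Pim1, Stat3 and Il1r1. To be called, a gene had to change 1.5-fold or more with adjusted p below 0.05 in edgeR's quasi-likelihood F-test, with Benjamini-Hochberg adjustment over the 14240 genes tested. Of these genes, 14.7% were called higher and 15.4% lower, and no member was called lower. In Doxo-NMN vs. Doxo hearts, 7 members were called lower, against 8.88% of genes called lower and 8.17% called higher. In Doxo-NMN vs. Ctrl hearts, 0 members were called, against 3.31% of genes called higher and 3.79% called lower. The lowest unadjusted p-value among members in that comparison was 0.0208 (Il4ra), and 5386 of all genes had an unadjusted p-value under 0.05. The 3 groups share 1 dispersion estimate per gene, so the spread among Doxo hearts enters the Doxo-NMN vs. Ctrl test. The absence of calls there does not show that the members were at Ctrl level. The median log2 fold change of the 9 tested members was 1.5 in Doxo vs. Ctrl and -1.63 in Doxo-NMN vs. Doxo, beside medians of -0.002 and -0.001 over all genes. The Doxo hearts are shared by these comparisons, so the 2 sets of values are not independent. Each SE given with an edgeR value is the absolute log2 fold change divided by the square root of the F statistic of that test. It is thus derived from the test and is not a separately estimated standard error. Il6 was removed by the low-count filter and was compared by permutation. The study's own text had already picked Il6, Il4ra and Osmr from these hearts, so their direction is not independent evidence. Its pathway enrichment of the same hearts listed an IL-6, JAK and STAT3 gene set as lowered with NMN, but not significantly affected by Doxo. That test ranks whole gene sets and differs from the calls of single genes here.

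**Figure D1:**
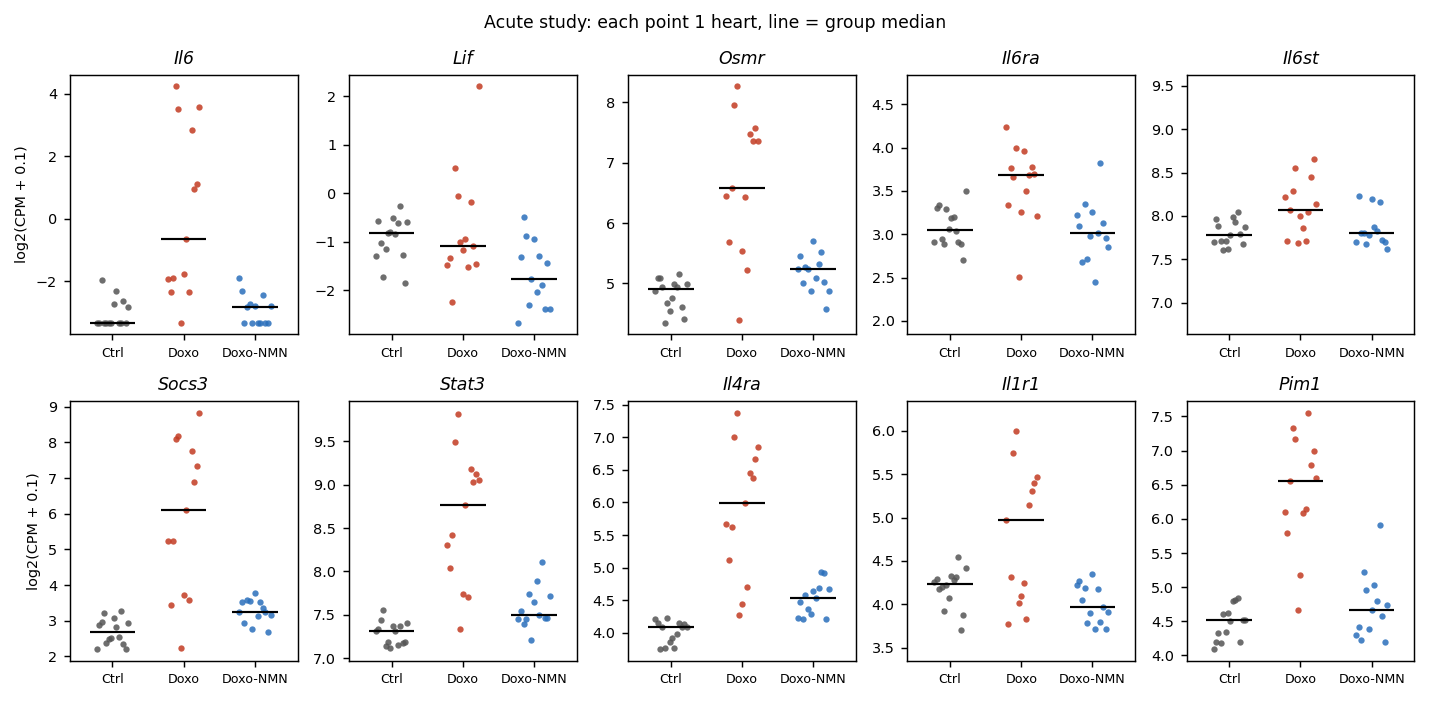
Level of each of the 10 genes in every acute heart as log2(CPM + 0.1) on the vertical axis, by group, with a line at the group median. Socs3, Osmr, Il4ra, Stat3 and Pim1 spread widely among the 13 Doxo hearts, and the 13 Doxo-NMN hearts sit near the 14 Ctrl hearts; each panel has its own scale.

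Il6 (chr5:30013114-30019981, plus strand, GRCm38) encodes the cytokine that gives the pathway its name, and its RNA was close to the detection limit outside the Doxo group. In Ctrl hearts Il6 ranged from 0 to 0.159 CPM with a median of 0, and 2 of 14 hearts had at least 3 counts. In Doxo hearts it ranged from 0 to 18.8 CPM with a median of 0.534 CPM, and 12 of 13 hearts had at least 3 counts. In Doxo-NMN hearts it ranged from 0 to 0.17 CPM with a median of 0.0403 CPM, and 3 of 13 hearts had at least 3 counts. The Doxo range thus overlapped with both other groups at its lower end, while 10 of 13 Doxo hearts lay above the highest Ctrl heart. For replicates 1, 3 and 7 the margin was within counting error, at 9, 6 and 8 counts against 7 in that Ctrl heart. Replicates 4, 13, 5 and 10 held 18.8, 11.8, 11.4 and 7.14 CPM of Il6, and replicates 12 and 11 held 2.09 and 1.83 CPM. Replicate 8 had 0.534 CPM, and the remaining 6 Doxo hearts were between 0 and 0.197 CPM. High and low hearts therefore stood side by side within the Doxo group. Mean log2(CPM + 0.1) of Il6 was 3.18 higher in Doxo than in Ctrl (two-sided permutation test, p = 3e-05) and 3.06 lower in Doxo-NMN than in Doxo (difference -3.06, permutation p = 7e-05). The difference between Doxo-NMN and Ctrl was 0.122 (permutation p = 0.504). Il6 was thus higher in Doxo hearts than in both other groups, while those groups had no detectable difference. Without Doxo replicate 6 the first 2 differences were 3.47 and -3.35. In an edgeR fit without the low-count filter, Il6 was called higher in Doxo vs. Ctrl (log2 fold change 6.94, SE 0.902, adjusted p = 3.42e-08) and lower when NMN was added to Doxo (-6.58, adjusted p = 1.07e-06).

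Lif (chr11:4257557-4272514, plus strand) encodes leukemia inhibitory factor, and it was the member whose fold change in Doxo vs. Ctrl depended on 1 heart. Lif ranged from 0.176 to 0.733 CPM in Ctrl (median 0.463), from 0.111 to 4.5 CPM in Doxo (median 0.366) and from 0.0568 to 0.609 CPM in Doxo-NMN hearts (median 0.193). The 3 groups overlapped, and the highest Doxo heart, replicate 13, held 4.5 CPM against 1.33 CPM in the next, replicate 4. In Doxo vs. Ctrl, Lif had a log2 fold change of 0.81 (SE 0.398, edgeR adjusted p = 0.0688) and was not called, and without Doxo replicate 13 the value was 0.08. In Doxo-NMN vs. Doxo, Lif fell by 1.63 on the log2 scale (SE 0.422, adjusted p = 0.00148), and without Doxo replicate 13 by 0.90 (adjusted p = 0.0217). The direction of Lif also differed between hearts with low and with high Myl4. Among hearts with at most 100 CPM of Myl4, Lif was 1.63 higher in Doxo than in Ctrl on the log2 scale (adjusted p = 0.0156), and among hearts above that limit the difference was -0.90 (adjusted p = 0.0201). In Doxo-NMN vs. Doxo the same split gave -2.76 and 0.71 for Lif, the latter with an edgeR adjusted p of 0.128. Doxo replicate 13, at 93.1 CPM of Myl4, lay just under the limit. Replicates 4, 5 and 10, the next highest Doxo hearts for Lif, lay under it as well. Whether the split reflects atrial content or these few hearts was not tested.

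The receptor genes of the family separated into Osmr, which changed strongly, and Il6ra and Il6st, which changed by less than the fold required for a call. Osmr (chr15:6813577-6874969, minus strand) ranged from 20.3 to 35.6 CPM in Ctrl (median 29.8), from 21 to 307 CPM in Doxo (median 95.9) and from 23.7 to 52.2 CPM in Doxo-NMN hearts (median 37.7). In 12 of 13 Doxo hearts Osmr was above every Ctrl heart, and 9 of 13 were above every Doxo-NMN heart. Osmr rose 4.52-fold in Doxo vs. Ctrl (log2 fold change 2.18, SE 0.251, edgeR adjusted p = 2.8e-09) and fell by 1.81 on the log2 scale in Doxo-NMN vs. Doxo (SE 0.255, adjusted p = 1.19e-06). Between Doxo-NMN and Ctrl the difference of Osmr was 0.36 (SE 0.244, adjusted p = 0.277), although 7 of 13 Doxo-NMN hearts lay above every Ctrl heart.

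Il6ra (chr3:89864059-89913196, minus strand), the receptor chain specific for IL-6, ranged from 6.39 to 11.2 CPM in Ctrl (median 8.16), from 5.58 to 18.8 CPM in Doxo (median 12.7) and from 5.35 to 14.1 CPM in Doxo-NMN hearts (median 7.95). Doxo hearts were higher in 9 of 13 cases and lower in 1 case than all Ctrl hearts. For Il6ra the log2 change reached 0.55 in Doxo vs. Ctrl (1.46-fold, SE 0.129, edgeR adjusted p = 0.000312), against -0.56 for Doxo-NMN vs. Doxo (SE 0.132, adjusted p = 0.000541), and neither was a call because the fold change was under 1.5. Il6ra lay close to the fold change limit. Without Doxo replicate 6 it passed both limits in both comparisons, with log2 fold changes of 0.61 and -0.63, and in Doxo-NMN vs. Doxo it also passed without Doxo replicate 7 (-0.59) or 13 (-0.60) or without Doxo-NMN replicate 4 (-0.59) or 10 (-0.65). Il6st (chr13:112464070-112510086, plus strand), which encodes gp130, ranged from 195 to 264 CPM in Ctrl (median 220), from 206 to 403 CPM in Doxo (median 268) and from 197 to 300 CPM in Doxo-NMN hearts (median 223). For Il6st it was 0.33 in Doxo vs. Ctrl (1.25-fold, SE 0.0893, adjusted p = 0.00146), against -0.27 for Doxo-NMN vs. Doxo (SE 0.0911, adjusted p = 0.011). Il6st passed the adjusted p-value in both comparisons and the fold change limit in neither.

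Stat3 (chr11:100885098-100939540, minus strand), the transcription factor of the pathway, was measured at high counts in every heart. It ranged from 139 to 188 CPM in Ctrl (median 159), from 161 to 903 CPM in Doxo (median 435) and from 148 to 276 CPM in Doxo-NMN hearts (median 181). Stat3 was above every Ctrl heart in 12 of 13 Doxo and 5 of 13 Doxo-NMN hearts, and the ranges overlapped through Doxo replicate 6. It rose 2.82-fold in Doxo vs. Ctrl (log2 fold change 1.5, SE 0.169, edgeR adjusted p = 1.78e-09) and fell by 1.19 on the log2 scale in Doxo-NMN vs. Doxo (SE 0.172, adjusted p = 1.68e-06). The Doxo-NMN hearts differed from Ctrl by 0.31 for Stat3 (SE 0.167, adjusted p = 0.169). RNA levels say nothing of the phosphorylated form of STAT3, which was not measured here.

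Socs3 (chr11:117966079-117970047, minus strand), the feedback inhibitor whose promoter is printed above, showed the largest fold change among the tested members. It ranged from 4.52 to 9.65 CPM in Ctrl (median 6.36), from 4.59 to 456 CPM in Doxo (median 68.5) and from 6.28 to 13.7 CPM in Doxo-NMN hearts (median 9.43). The 4 Doxo hearts with the most Il6, replicates 4, 13, 5 and 10, held 272, 456, 288 and 216 CPM of Socs3, while replicates 2, 9, 7 and 6 held 10.8, 11.8, 13.1 and 4.59 CPM. The spread within the Doxo group thus covered nearly the whole range of the study, and 9 of 13 Doxo hearts were above every Doxo-NMN heart. Socs3 rose 19.7-fold in Doxo vs. Ctrl (log2 fold change 4.30, SE 0.464, edgeR adjusted p = 7.58e-10) and fell by 3.74 on the log2 scale in Doxo-NMN vs. Doxo (SE 0.465, adjusted p = 3.16e-07). Its value between Doxo-NMN and Ctrl was 0.56 (SE 0.422, edgeR adjusted p = 0.34), although 6 of 13 Doxo-NMN hearts lay above every Ctrl heart. In hearts with at most 100 CPM of Myl4 the log2 fold change of Socs3 in Doxo vs. Ctrl was 5.02 (SE 0.785), and in hearts above that limit it was 3.26 (SE 0.393), and both were called.

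Pim1 (chr17:29490753-29496112, plus strand), a kinase gene known as a STAT3 target, ranged from 17 to 28.7 CPM in Ctrl (median 22.7), from 25.4 to 188 CPM in Doxo (median 93.6) and from 18.2 to 60.1 CPM in Doxo-NMN hearts (median 25.3). It was above all Ctrl hearts in 12 of 13 Doxo hearts. Pim1 rose 4.29-fold in Doxo vs. Ctrl (log2 fold change 2.10, SE 0.213, edgeR adjusted p = 2.52e-10) and fell by 1.78 on the log2 scale in Doxo-NMN vs. Doxo (SE 0.216, adjusted p = 2.37e-07). Its highest Doxo-NMN heart, replicate 10, at 60.1 CPM, was also the highest of that group for Il6ra, Stat3 and Il4ra. That heart had 7 of the 10 genes above all Ctrl hearts, the most in the Doxo-NMN group.

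The 2 cytokine receptor genes outside the IL-6 family also changed. Il4ra (chr7:125552120-125579474, plus strand) ranged from 13.4 to 18.7 CPM in Ctrl (median 16.9), from 19.2 to 166 CPM in Doxo (median 63.4) and from 18.4 to 30.6 CPM in Doxo-NMN hearts (median 23.1). It was the only member whose Ctrl and Doxo ranges did not overlap, with 13 of 13 Doxo hearts above all Ctrl hearts, as for 0.435% of all tested genes, and 10 of 13 Doxo-NMN hearts also lay above all Ctrl hearts. Il4ra rose 4.48-fold in Doxo vs. Ctrl (log2 fold change 2.16, SE 0.222, edgeR adjusted p = 3.08e-10) and fell by 1.65 on the log2 scale in Doxo-NMN vs. Doxo (SE 0.223, adjusted p = 8.42e-07). Against Ctrl the Doxo-NMN hearts were 0.52 higher on the log2 scale (SE 0.216, adjusted p = 0.0701), the lowest adjusted p among the members there.

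Il1r1 (chr1:40225080-40317257, plus strand) changed least among the called members. It ranged from 12.9 to 23.2 CPM in Ctrl (median 18.8), from 13.6 to 63.7 CPM in Doxo (median 31.3) and from 13 to 20.3 CPM in Doxo-NMN hearts (median 15.5). The groups overlapped, with 7 of 13 Doxo hearts above all Ctrl hearts. Il1r1 rose 1.72-fold in Doxo vs. Ctrl (log2 fold change 0.78, SE 0.176, edgeR adjusted p = 0.000185) and fell by 0.96 on the log2 scale in Doxo-NMN vs. Doxo (SE 0.181, adjusted p = 4.34e-05). With limma voom and sample weights Il1r1 was 0.50 higher in Doxo than in Ctrl (adjusted p = 0.0029), below the fold change limit.

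**Figure D2:**
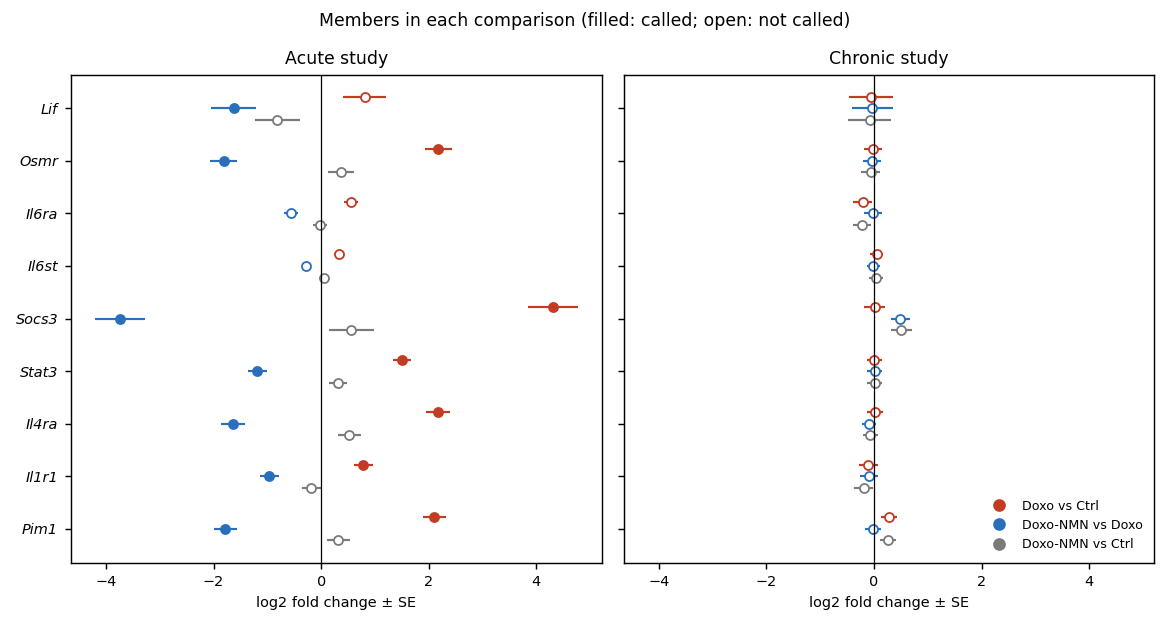
Log2 fold change of the 9 tested genes (horizontal axis, bars ± SE) in the 3 comparisons of the acute study (left) and the chronic study (right), with filled points for calls. Socs3 stands farthest from 0 in the acute study (4.30 and -3.74), and all chronic points are open. The SE was derived from the F statistic of each test.

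Levels were compared between genes per kilobase of exon, as mean CPM per kb ± SD. The SD is a spread between hearts, and genes were not compared heart by heart, so overlapping spreads do not show equal levels. In the 14 Ctrl hearts Il6st (20.2 ± 2.01) and Stat3 (16.5 ± 1.56) were most abundant, followed by Pim1 (6.66 ± 1.16). Il1r1 (2.88 ± 0.428), Il4ra (2.7 ± 0.312), Osmr (2.35 ± 0.408) and Socs3 (2.29 ± 0.593) came next, each within the spread of its neighbour. Il6ra (0.979 ± 0.156), Lif (0.101 ± 0.0366) and Il6 (0.0123 ± 0.0203) were lowest. In the 13 Doxo hearts Stat3 (46.5 ± 23.1) and Socs3 (45.2 ± 48.7) were highest, followed by Pim1 (28.6 ± 14.5) and Il6st (25.4 ± 5.76), and the spreads of these 4 overlapped. Il4ra (12.1 ± 7.58) and Osmr (10.6 ± 7.22) followed within each other's spread, then Il1r1 (4.95 ± 2.59), Il6 (1.72 ± 2.54), Il6ra (1.43 ± 0.394) and Lif (0.18 ± 0.268). In the Doxo-NMN group Il6st (21 ± 3.22) and Stat3 (20.4 ± 3.53) were again at the top, and Il6 had a level of 0.017 ± 0.0214.

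The acute Doxo hearts differed among themselves, from hearts with little to hearts with much of most members, but not in the same order for each member. Replicate 1 had the highest Il6ra (18.8 CPM) with 37.8 CPM of Socs3, and replicate 13 had the highest Socs3 (456 CPM) with 9.14 CPM of Il6ra. In replicates 4, 5 and 10 all 10 genes were above every Ctrl heart, in replicates 1, 11, 12 and 13 it was 9, in replicate 3 it was 8, in replicate 8 it was 7, in replicates 7 and 9 it was 6 and in replicate 2 it was 5. For replicates 1, 3 and 7 these numbers include Il6, which passed the highest Ctrl heart only within counting error. How many of all tested genes lay above every Ctrl heart was not counted for single hearts. The numbers are therefore not shown to be particular to the members. Within the 13 Doxo hearts the log2 CPM of Socs3 had a Pearson r of 0.943 with Il6 (Spearman's rho 0.962, r 0.929 without the 2 hearts farthest from the median). It was 0.967 with Il4ra (rho 0.951), 0.955 with Osmr (rho 0.879), 0.952 with Stat3 (rho 0.929), 0.903 with Il1r1 (rho 0.929) and 0.871 with Pim1 (rho 0.83). The relation was weaker with Il6st (r 0.737, rho 0.736), Lif (r 0.648, rho 0.659) and Il6ra (r 0.486, rho 0.291). In the 13 Doxo-NMN hearts Socs3 had an r of 0.878 with Osmr (rho 0.857) but 0.43 with Il6 (rho 0.431), where 10 of those hearts had fewer than 3 counts of Il6. These are descriptions over hearts whose values for each pair come from the same library.

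**Figure D3:**
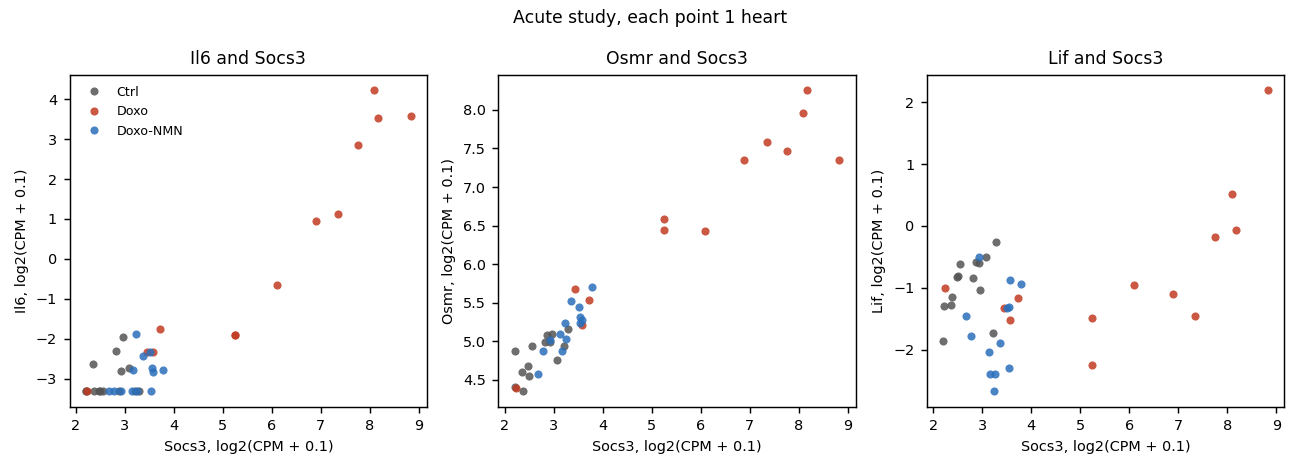
Il6, Osmr and Lif (vertical axes) against Socs3 (horizontal axes) in the 40 acute hearts, all as log2(CPM + 0.1), 1 point per heart coloured by group. In Doxo hearts Il6 and Osmr rise with Socs3 (r 0.943 and 0.955), while Lif follows it less closely (r 0.648).

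Over all 40 acute hearts, after the group means were subtracted, the tested genes with the pattern most like Socs3 were Sbno2 (r 0.96), Tiparp (r 0.94), Litaf (r 0.939), the member Osmr (r 0.937) and Nfkbiz (r 0.936). Most like Osmr were Tgfbr2 (r 0.941), the member Socs3 (r 0.937), Sbno2 (r 0.936), Slc10a6 (r 0.936) and Ifitm2 (r 0.933). Most like Il6 were Sbno2 (r 0.919), the member Socs3 (r 0.908), Jmjd1c (r 0.908), Sat1 (r 0.899) and Csf2rb2 (r 0.894). Among all tested genes Stat3 ranked 15 (rho 0.833) and Il4ra 13 (rho 0.694) in likeness to Socs3. Of the other members Il1r1 ranked 42, Pim1 253 (r 0.752), Il6st 794, Lif 1605 and Il6ra 2817, so many genes outside the list were more like Socs3 than these. The Doxo hearts weigh most in these values, since the SD of Socs3 was 141 CPM there, 1.71 CPM in Ctrl and 2.17 CPM in Doxo-NMN hearts. Within Doxo-NMN hearts Socs3 had an r of 0.347 with Stat3 and 0.504 with Il4ra. Within Ctrl hearts these were 0.785 and -0.115.

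Markers of other cells moved with these results. All 7 neutrophil markers (S100a8, S100a9, Retnlg, Csf3r, Cxcr2, Ngp and Mmp8) were called higher in Doxo vs. Ctrl, and their summed level was 1.9 to 6.3 CPM in Ctrl, rose as high as 337 CPM in Doxo (lowest 3.29) and lay between 5.08 and 35.1 CPM in Doxo-NMN hearts. Ngp had a median under 3 counts in Ctrl hearts. In Doxo-NMN vs. Doxo, 4 of the 7 were called lower, beside the 7 members called lower there. Within Doxo hearts this sum had an r of 0.739 with Socs3 (rho 0.769, r 0.559 without the 2 farthest hearts). In Doxo-NMN vs. Ctrl, 5 of the 7 neutrophil markers were called higher, while 0 members were called. Of 8 macrophage and monocyte markers, 4 were called lower in Doxo vs. Ctrl (Csf1r, Adgre1, Ccr2 and Lyz2), their sum was 241 to 352 CPM in Ctrl and 102 to 322 CPM in Doxo hearts, and it had an r of -0.201 with Socs3 in Doxo hearts. Of the 5 heart muscle markers, Actc1 (-1.26) and Myh6 (-0.69) were called lower and Tnnt2 (0.76) higher in Doxo vs. Ctrl, and Myh6 (0.82) and Actc1 (0.92) were called higher in Doxo-NMN vs. Doxo. Of 5 fibroblast markers 2 were called lower (Col1a1 and Lum), and of 5 endothelial markers 1 (Kdr). Of 5 T cell markers 1 could be tested, Cd247, which was called higher, and the sum of the 5 was 0.517 to 1.32 CPM in Ctrl and 0.518 to 2.33 CPM in Doxo hearts, while mean Cd2 was 0.291 and 0.126 CPM and mean Cd3g 0.142 and 0.06 CPM. The atrial sum had an r of 0.845 with Socs3 among the Ctrl hearts and of 0.0689 among the Doxo hearts. In the Doxo vs. Ctrl comparison all 6 calls were made both within hearts with low and within hearts with high Myl4. The part of neutrophils and of heart muscle cells in these results was not tested.

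The wider pathway was described by gene lists chosen with earlier results of these data known, so their counts are not independent support. Of the IL-6 family ligands other than Il6 and Lif, 5 were tested, and Clcf1, a ligand of the ciliary neurotrophic factor receptor, rose in Doxo vs. Ctrl (log2 fold change 1.24, edgeR adjusted p = 1.87e-06), while Ebi3 (-0.99) and Ctf2 (-0.68) fell. Clcf1 fell by 1.2 on the log2 scale in Doxo-NMN vs. Doxo (adjusted p = 1.8e-05). Osm, the ligand of Osmr, was near the floor, with a highest value of 0.378 CPM among Ctrl hearts, 1.83 CPM among Doxo hearts and 0.355 CPM among Doxo-NMN hearts, and Il11 stayed at or under 0.435 CPM in all acute hearts. Among receptor genes other than Il6ra, Il6st and Osmr, 1 of 4 was called, Il27ra, which fell by 1.76 on the log2 scale (adjusted p = 8.29e-07). Of 4 Janus kinases 1 was called, Jak3 (0.71, adjusted p = 5.99e-07), beside 14.7% of all genes called higher. Of the 5 other STAT genes tested, 1 was called higher, Stat2 (1.01, adjusted p = 9.73e-05), and 2 were called lower.

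Of 15 inhibitor genes other than Socs3, 4 rose in Doxo vs. Ctrl, Socs2 by 1.37 (edgeR adjusted p = 5.91e-10), Ptpn2 by 0.89 (adjusted p = 4.35e-07), Cish by 0.81 (adjusted p = 3.5e-05) and Socs1, named after its value was seen, by 0.73 (adjusted p = 0.0479) on the log2 scale. Ptpn6, a phosphatase of blood cells, fell by 0.78 and 10 were not called, a share of calls near that of all genes (14.7% higher and 15.4% lower). Of 17 STAT3 target genes that are not members, 13 were called higher and 2 lower in Doxo vs. Ctrl, with a median log2 fold change of 1.18, and in Doxo-NMN vs. Doxo 11 were called lower and 1 higher. With Pim1 and Il4ra, the smallest adjusted p-values of the list belonged to Ier3, an early stress response gene (log2 fold change 2, adjusted p = 9.19e-11), and Cebpd, a transcription factor of inflammation (2.31, adjusted p = 6.36e-10). The 2 lower ones were Ccnd1, which encodes cyclin D1 (-1.29), and Vegfa, a growth factor for blood vessels (-0.90). Of 12 acute-phase genes tested, 10 rose in Doxo vs. Ctrl and 10 fell in Doxo-NMN vs. Doxo. These genes encode proteins that rise in inflammation, with Cp up by 1.53, Mt2 by 4.30, Serpina3n by 4.84 and Mt1 by 2.87 on the log2 scale. Of 5 liver markers 2 were tested in Doxo vs. Ctrl, Ttr, which was called higher, and Ahsg, which was not called. Ahsg ranged from 1.57 to 31 CPM in Ctrl hearts (median 14.5) and from 2.17 to 36.5 CPM in Doxo hearts (median 5.35). Alb stayed at or under 0.673 CPM in all acute hearts, and Apoa1 and Serpina1a had medians under 3 counts in every acute group. Of the 12 acute-phase genes, 7 were called higher in Doxo-NMN vs. Ctrl, where 0 members were.

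The lists around the other receptors differed. Of 13 genes of the IL-1 axis other than Il1r1, 6 rose and 1 fell in Doxo vs. Ctrl. Il1r2, the decoy receptor for IL-1, rose by 4.62 on the log2 scale (edgeR adjusted p = 5.05e-09), Irak3 by 1.14, Il18rap by 2.38 and Myd88 by 0.80, while Il1rl1, the receptor for IL-33, fell by 1.34. Il1b, the ligand of Il1r1, ranged from 0.1 to 1.77 CPM in Ctrl and from 0.222 to 9.99 CPM in Doxo hearts, with medians of 0.428 and 0.444 CPM, and was called higher (log2 fold change 1.61, adjusted p = 0.00971). Around Il4ra, 0 of 4 other genes rose, and Il4 (-0.98) and Il2rg (-1.07) fell. Of the PIM kinases, Pim3 rose by 1.37 on the log2 scale, and Pim2 had a log2 fold change of 0.41 that was not a call.

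**Figure D4:**
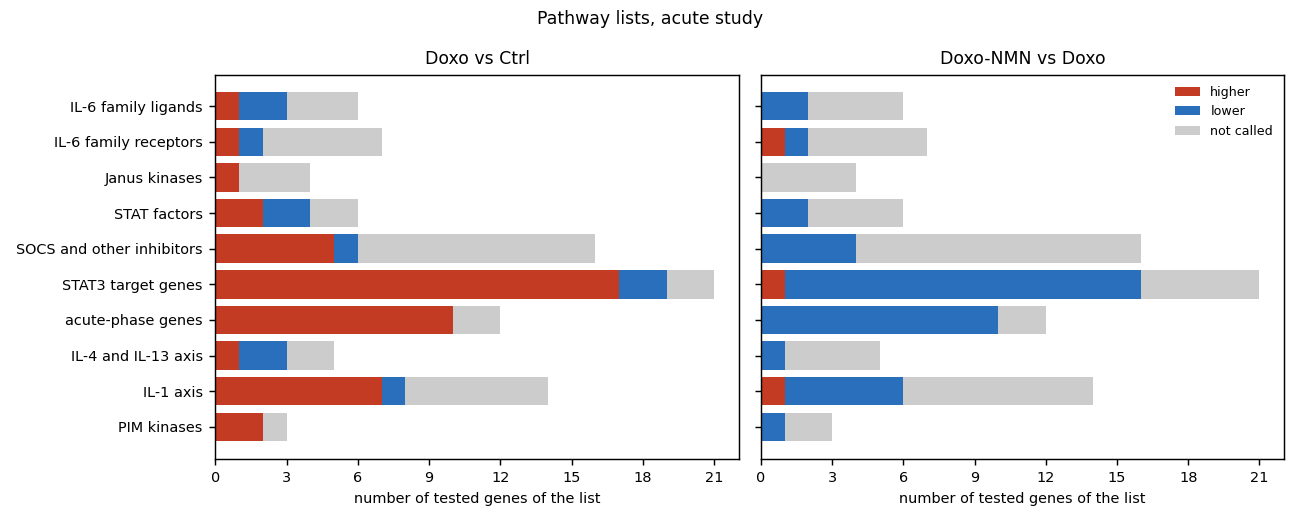
Number of tested genes of each pathway list (horizontal axis) called higher, called lower or not called in Doxo vs. Ctrl (left) and Doxo-NMN vs. Doxo (right) of the acute study, members included. The STAT3 target list has 17 of 21 higher on the left and 15 of 21 lower on the right.

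In the chronic study, 0 members were called in any comparison at an adjusted p-value under 0.05, where the share of 14960 tested genes with a call was 0.0602% in Doxo vs. Ctrl, 0% in Doxo-NMN vs. Doxo and 0.0401% in Doxo-NMN vs. Ctrl. In edgeR's test 1174, 441 and 707 genes had an unadjusted p-value under 0.05 in these comparisons, and DESeq2 also called 0 members in each. The log2 fold changes of the 9 tested members lay between -0.21 and 0.28 in Doxo vs. Ctrl, with a median of 0.007 beside -0.001 over all genes. The largest of them, Pim1, had a value of 0.28 (SE 0.152, edgeR adjusted p = 0.673), and the smallest, Il6ra, of -0.21 (SE 0.174, adjusted p = 0.776). No gene of the pathway lists was called in any chronic comparison.

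Among chronic members Socs3 differed most in the comparisons with NMN. Socs3 was at 6.04, 4.45, 5.37, 5.64 and 5.72 CPM in the Ctrl hearts, at 4.77 to 6.33 CPM in Doxo hearts (median 5.45) and at 5.75 to 14 CPM in Doxo-NMN hearts (median 6.40). The log2 fold change of Socs3 was 0.49 in Doxo-NMN vs. Doxo (SE 0.183, unadjusted p = 0.014, edgeR adjusted p = 0.999), against 0.50 for Doxo-NMN vs. Ctrl (SE 0.194, unadjusted p = 0.017, adjusted p = 0.99). Without Doxo-NMN replicate 3, which held the 14 CPM, the values were 0.24 and 0.25. Pim1 was at 22.7, 23, 23.4, 20.7 and 21.1 CPM in Ctrl hearts, at 20.8 to 40.8 CPM in Doxo hearts (median 23.5) and at 23.5 to 34.2 CPM in Doxo-NMN hearts (median 25.1). All 6 Doxo-NMN hearts had more Pim1 than every Ctrl heart, as did 0.421% of all tested genes, and the log2 fold change of Pim1 was 0.26 (SE 0.152, edgeR adjusted p = 0.999).

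The cytokines and the other receptors showed no calls in the chronic hearts. Il6 had at least 3 counts in 1 of 17 chronic hearts, Doxo-NMN replicate 4 with 0.139 CPM. Mean log2(CPM + 0.1) of Il6 differed by -0.115 between Doxo and Ctrl (two-sided exact permutation test, p = 0.654), by 0.0623 between Doxo-NMN and Doxo (exact p = 1.0) and by -0.0525 between Doxo-NMN and Ctrl (exact p = 0.935), so that no difference was detectable at this depth. For chronic plasma, the paper lists IL-6 protein among the cytokines that were alike between groups or could not be detected. Lif was at 0.283 to 0.944 CPM in Ctrl and 0.115 to 0.736 CPM in Doxo hearts. Osmr was at 32.3, 19.0, 17.1, 19.0 and 15.8 CPM in Ctrl hearts, and its medians were 20.6 CPM for Doxo and 18.3 CPM for the Doxo-NMN group. Chronic medians in Ctrl, Doxo and Doxo-NMN hearts were 131, 121 and 116 CPM for Stat3, 170, 172 and 179 CPM for Il6st, 6.90, 5.34 and 5.37 CPM for Il6ra, 15.9, 16.5 and 15.8 CPM for Il4ra, and 14.9, 15.2 and 12.4 CPM for Il1r1. Doxo replicate 2 had the highest level of its group for Osmr, Il6ra, Il6st, Il4ra and Pim1 and the lowest for Lif and Il1r1.

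**Figure D5:**
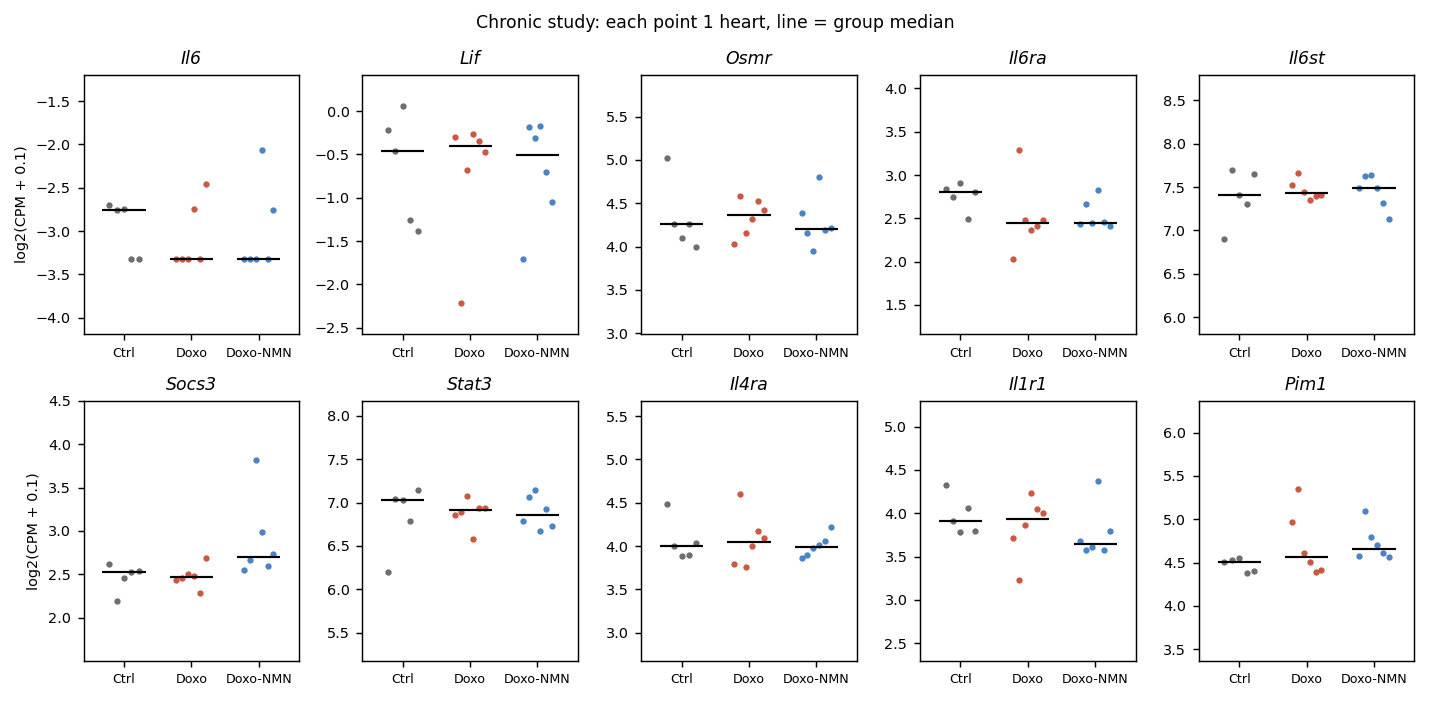
Level of each of the 10 genes in every chronic heart as log2(CPM + 0.1) on the vertical axis, by group (5 Ctrl, 6 Doxo and 6 Doxo-NMN hearts), with a line at the group median and its own scale in each panel. The groups overlap in every panel except Pim1, where the 6 Doxo-NMN hearts (23.5 to 34.2 CPM) lie above the 5 Ctrl hearts (20.7 to 23.4 CPM).

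The effect of Doxo was then compared between the studies with an interaction term in 1 edgeR fit of all 57 hearts over 15152 genes. The acute effect exceeded the chronic effect in 7 members, Socs3, Il4ra, Osmr, Pim1, Stat3, Il6ra and Il1r1, where 23.6% of all genes were called in either direction. The difference of log2 fold changes was 4.29 for Socs3 (SE 0.739, adjusted p = 0.000229), 2.19 for Osmr (SE 0.41, adjusted p = 0.000477), 2.14 for Il4ra (SE 0.361, adjusted p = 0.000191), 1.82 for Pim1 (SE 0.346, adjusted p = 0.000545) and 1.49 for Stat3 (SE 0.279, adjusted p = 0.000487). It was 0.88 for Il1r1 (adjusted p = 0.0295) and 0.75 for Il6ra (adjusted p = 0.0167). Il1r1 was not called without chronic Ctrl replicate 1 (adjusted p = 0.0701), Doxo replicate 1 (adjusted p = 0.0515) or Doxo replicate 2 (adjusted p = 0.0501).

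The effect of NMN on top of Doxo was more negative in the acute than in the chronic study for 5 members, where 6.09% of all genes were called in either direction. The edgeR difference was -4.22 for Socs3 (SE 0.713, adjusted p = 0.000785), -1.76 for Pim1 (SE 0.338, adjusted p = 0.00346), -1.76 for Osmr (SE 0.4, adjusted p = 0.0103), -1.54 for Il4ra (SE 0.351, adjusted p = 0.0103) and -1.19 for Stat3 (SE 0.273, adjusted p = 0.0106). For Il6 the 2 differences were 7.27 (SE 3.63, adjusted p = 0.135) and -6.84 (SE 3.17, adjusted p = 0.158) and were not called, while DESeq2 called both (adjusted p = 0.00398 and 0.0144). The studies also differed in mouse supplier, sequencing site, age, Doxo schedule, NMN dose and route, day of collection and count table, and these cannot be told apart.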

How the data were processed

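Hearts were assigned to groups and replicates by their labels, and all 57 were used. Libraries were made from poly(A)-selected RNA and sequenced from 1 end. The authors aligned the reads to mm10 with STAR (version 2.7.3a per the submitters' processing notes) and counted them per gene with featureCounts 2.0.0, and the deposited tables hold these raw counts. The annotation used for counting is not given in the sources used here. A median of 73.6% of small counts (1 to 20) was even per acute heart against 40.3% per chronic heart, so a floor of 3 counts may not mean the same in the 2 tables.

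Genes passing filterByExpr were scaled by TMM and fitted in edgeR 4.0.16 (R 4.3.3) with all 3 groups of a study in 1 quasi-likelihood model, with Benjamini-Hochberg adjustment over every gene tested. The limit was 0.05 on the adjusted p-value, and acute calls also needed a 1.5-fold change, after the study's methods. Il6, which the filter removed, was compared as log2(CPM + 0.1) by two-sided permutation tests, with 100000 resamples for acute hearts (smallest possible p 1e-05) and by full enumeration for chronic hearts. Differences between studies were interaction terms over all hearts. DESeq2 1.42.0, limma 3.58.1 with voom, RLE factors, other filters, a replicate block, fits within low or high Myl4 and leaving out each heart were alternatives. Correlations within a group used log2(CPM + 0.1). Other correlations used log2 CPM with a prior count of 2, except that Il6 was taken as log2(CPM + 0.1) in the likeness ranking. Values were summarised in Python 3.11.15 with pandas 2.3.3 and scipy 1.17.1. Gene positions come from GENCODE release M21 (GRCm38), and promoters from RefSeq (GRCm38.p6).

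The members, gene lists and comparisons were chosen with earlier results of these data known. The genes named were all 10 members, up to 4 called genes per direction and list with the smallest adjusted p in acute Doxo vs. Ctrl, the ligands Clcf1, Osm, Il11 and Il1b, and the 5 genes most like Socs3, Osmr and Il6. A gene that this rule also names is not reported here. The fits were tested on simulated data. Every pair of hearts in a group differed by more than sampling noise (chi-square per gene at least 10.4 among acute and 5.49 among chronic hearts). The replicates of a group are separate hearts of 1 cohort per study, so p-values measure the spread between hearts within that cohort.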

Additional observations from a re-analysis of the deposited data

Results flagged for a closer look

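Among the 30 chronic groups of values (10 members in 3 groups), 6 had a heart far from the others by Dixon's test, of which chance gives about 1 in 20. Chronic Ctrl replicate 1 was high for Osmr (32.3 CPM) and Il4ra (22.3 CPM). Chronic Doxo replicate 2 was low for Lif (0.115 CPM) and high for Il6ra (9.71 CPM). Chronic Doxo-NMN replicate 3 was high for Socs3 (14 CPM), and replicate 4 for Il1r1 (20.6 CPM). Acute groups were larger than 10 hearts and were not examined in this way.

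The effect of Doxo differed between the acute and chronic studies by an interaction test in edgeR for Socs3 (4.29 on the log2 scale), Osmr (2.19), Il4ra (2.14), Pim1 (1.82), Stat3 (1.49), Il1r1 (0.88) and Il6ra (0.75), all larger in the acute study. The effect of NMN on top of Doxo differed for Socs3 (-4.22), Osmr (-1.76), Pim1 (-1.76), Il4ra (-1.54) and Stat3 (-1.19), all more negative in the acute study.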

How the results depend on the processing

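The number of members called in acute Doxo vs. Ctrl stayed between 5 (limma voom) and 8 under the alternatives, and in Doxo-NMN vs. Doxo between 6 and 9. In Doxo-NMN vs. Ctrl it was 0 except 1 with limma voom and 1 with a fit of only the 2 groups compared, both Lif, called lower. All chronic counts stayed at 0, and the differences between studies gave 7 to 8 and 5 to 7 members. The 8 members in hearts with high Myl4 were 7 higher and 1, Lif, lower. When each heart was left out in turn, the counts were 6 to 7, 7 to 8 and 0 in the acute study, 0 in the chronic study, and 6 to 7 and 5 to 7 for the differences, where only chronic hearts and acute Doxo replicate 6 were left out. Without acute Doxo replicate 6, Il6ra was added in both acute comparisons (7 and 8 members).

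Lif reversed in hearts with high Myl4 (-0.90 in Doxo vs. Ctrl and 0.71 in Doxo-NMN vs. Doxo), and the cause was not tested. With limma voom, Il1r1 in Doxo vs. Ctrl (0.50) and Lif in Doxo-NMN vs. Doxo (-0.69) were not called. Lif in Doxo vs. Ctrl was called without Doxo replicate 1, 3, 9 or 12 (adjusted p 0.038 to 0.0494).

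The hearts were treated as unpaired. Same-numbered acute hearts had a median correlation of deviations of 0.0605 (39 pairs, 18 over 0.1), and chronic hearts of 0.0223 (16 pairs, 4 over 0.1). Between hearts with different numbers in different groups the medians were -0.0334 and -0.0137. Such small values cannot decide whether the replicate numbers pair the hearts. With the replicate block, 6, 7 and 0 members were called in the acute comparisons and 0 in the chronic ones.

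Limits are the low counts of Il6 and Lif, the small chronic groups, the different atrial content of the acute hearts, and the absence of a group given NMN alone.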
